A study of Mus musculus with 35 samples.

Results

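The Mir155 locus, with the host transcript of the microRNA, and the Pde4b locus were followed in lists of ChIP-seq regions from mouse bone marrow macrophages before and after lipopolysaccharide (LPS). The members are the listed regions up to 100 kb wide that overlapped chr16:84680000-84740000 (the Mir155 window, 60 kb) or chr4:101750000-102300000 (the Pde4b window, 550 kb), both on mouse build mm9. There were 206 such regions, 59 in the Mir155 window and 147 in the Pde4b window, of 250088 regions in all and 233211 up to 100 kb wide. Both loci were selected on their RNA polymerase II (Pol II) lists, since each window held a Pol II region in every LPS list and none in the unstimulated list. Pol II values are therefore given as a description with no test. The rule did not use the lists of the other targets, but the loci were proposed with earlier results of these data known, and Pol II and H4ac come from the same stimulation, so H4ac values at these loci are not independent evidence of a response.

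The macrophages were wild-type primary cells grown from the marrow of female C57BL/6 mice aged 8 to 12 weeks, and each of the 35 libraries gave 1 region list. Pol II was profiled unstimulated (letter A), at 60 min (A, B), 120 min (A), 240 min (A, B) and 360 min (A) of LPS. Acetylated histone H4 (H4ac), a mark of open and active chromatin, had letters A and B at each of unstimulated, 60, 120 and 240 min. The NF-κB subunit p50 had 3 unstimulated lists (A, C, D) and 4 at 60 min (A to D), and the subunit p65 had 1 unstimulated list (X), 2 at 60 min (A, X) and 2 at 120 min (C, X). The stress-induced transcription factor ATF3 had 3 lists at 240 min (A, B, C). H3K27me3, the Polycomb mark of repressed chromatin, had 1 list each unstimulated and at 120, 240 and 480 min, and 1 more whose time field reads 480 min while its title gives 60 min of LPS and a delay of 7 h (the delay library). The letter in a title served as the replicate name. No source says whether letters are separate animals or cultures, so a p-value here covers only the spread between libraries, which may be technical.

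LPS, a component of the envelope of Gram-negative bacteria, activates macrophages through Toll-like receptor 4, which leads to nuclear entry of NF-κB and to rapid transcription of inflammatory genes. Mir155 encodes miR-155, a microRNA cut from a hairpin within the noncoding transcript of its host gene Mir155hg. It is known to be induced by LPS in macrophages and to repress mRNAs of inhibitors of the response, such as Socs1 and Inpp5d. Pde4b encodes a phosphodiesterase that degrades cyclic AMP, a second messenger that restrains production of tumour necrosis factor, and is itself known as an LPS-inducible gene of macrophages and monocytes. The gene has several promoters that give long and short isoforms of the enzyme.

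The microRNA is shown because it is the product of its locus, and start sites because transcription by Pol II begins there. Sequences and their positions are from RefSeq on build GRCm38.p6, a different build from the mm9 lists, so the positions of the next 5 sequences cannot be set against the regions. All 5 lie on the plus strand. The microRNA hairpin at chr16:84714140-84714204 is 65 bases long, and its capitals mark the mature arms. In the mature sequences the capitals mark the seed, bases 2 to 8, which pairs with target mRNAs.
Mir155 hairpin: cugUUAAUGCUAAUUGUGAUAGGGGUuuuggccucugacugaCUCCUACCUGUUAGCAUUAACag
mmu-miR-155-5p, chr16:84714143-84714165: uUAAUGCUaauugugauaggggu
mmu-miR-155-3p, chr16:84714182-84714202: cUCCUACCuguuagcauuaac
Neither seed was shared by another of the 1738 mature mouse microRNAs in the RefSeq table. The Mir155hg promoter window runs from 250 bases before to 50 bases after the start of the host transcript annotated in RefSeq. Whether this start is the one used in these macrophages was not tested.
Mir155hg start, chr16:84712773-84713072: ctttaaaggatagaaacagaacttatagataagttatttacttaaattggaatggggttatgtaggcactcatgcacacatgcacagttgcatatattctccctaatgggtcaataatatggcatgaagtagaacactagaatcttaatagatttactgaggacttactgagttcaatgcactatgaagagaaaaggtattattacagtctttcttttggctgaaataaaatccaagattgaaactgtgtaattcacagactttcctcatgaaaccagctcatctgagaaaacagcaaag
Pde4b had 4 annotated starts, spaced 148.505, 17.498 and 2.285 kb apart. The second start is printed because its window was the only one of these 5 promoter windows with a match to the NF-κB motif, which the capitals mark.
Pde4b second start, chr4:102569810-102570109: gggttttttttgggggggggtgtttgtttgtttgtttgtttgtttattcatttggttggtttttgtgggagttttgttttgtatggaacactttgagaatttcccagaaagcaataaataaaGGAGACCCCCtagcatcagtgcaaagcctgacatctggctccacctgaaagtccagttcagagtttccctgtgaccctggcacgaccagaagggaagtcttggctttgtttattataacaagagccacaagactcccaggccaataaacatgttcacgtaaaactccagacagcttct
The match, GGAGACCCCC as read on the plus strand, lay on the minus strand at -128 from the start. The motifs searched on both strands were NF-κB by name, AP-1 (TGANTCA), the cyclic AMP response element (CRE, TGACGTCA), the CRE half-site (TGACG) and a TATA box (TATAAA). Each CRE also holds the half-site. They were found in 4.51%, 7.81%, 1.79%, 20.8% and 13.6% of 32851 mouse promoter windows of the same 300 bases. The first Pde4b start had a half-site match on the minus strand, CGTCA as read on the plus strand, at -34 from it. No listed motif was found in the windows of the last 2 Pde4b starts or of the annotated Mir155hg start. Sequence outside these windows was not searched, so sites elsewhere at either locus are not excluded. The nearest protein-coding genes in that RefSeq annotation were Ncam2 and Mrpl39 on the sides of Mir155 and Gm12789 and Sgip1 on the sides of Pde4b.

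The lists held 255 to 28522 regions, gave coordinates in steps of 10 bp and carried no read numbers, so depth is unknown and "not listed" is not the same as unbound. The score of a region is the authors' own value and was used only to rank regions within its list. No list was a copy of another. Several factor lists stood apart from others of the same target in how many of their regions up to 10 kb touched H4ac regions. The share was 3.94% for p65 A at 60 min and 8.60% for p65 C at 120 min, against 67.5% to 83.8% in the 3 p65 lists of letter X. It was 9.38% for ATF3 B and 9.66% for ATF3 C, against 73.2% for ATF3 A. The p50 lists had 29.8% to 72.5%. Macrophage markers were not checked because no mm9 gene annotation was used here.

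At the Mir155 locus, Pol II was listed along a single block of 25.46 kb after LPS, chr16:84701601-84727060, and nowhere in the window before LPS. The window held no other Pol II block. Covered bases, the union of listed regions within the window, were 0 kb in the unstimulated list. They were 18.77 kb (A) and 21.44 kb (B) at 60 min. They were 19.89 kb at 120 min (A), and 22.66 kb (A) and 23.63 kb (B) at 240 min. At 360 min (A) they were 23.67 kb. Every LPS list thus covered between 73.7% and 93.0% of the block, with a mean of 21.7 ± 2.02 kb (SD, n = 6). The extent was similar in all LPS lists and the lowest value came from a 60 min list.

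The best Mir155 region ranked near the top of every LPS list. Its score was 6.4726 at 60 min in A, rank 32 of 5519 regions, and 6.1818 in B, rank 51 of 6061. At 120 min it was 6.5038, rank 30 of 4559. At 240 min it was 5.6179 in A, rank 77 of 5144, and 6.0364 in B, rank 76 of 7728. At 360 min it was 4.3917, rank 58 of the 2948 regions of the shortest Pol II list. In percent of list length these ranks ran from 0.580% at 60 min (A) to 1.97% at 360 min.

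The start of the Mir155 block varied less between lists than its end. The first covered base lay between 84701601, at 360 min, and 84703561, at 120 min. The last covered base lay between 84722220, at 60 min in A, and 84727060, at 240 min in B. A length of 18.05 kb was covered in all 6 LPS lists, in 8 stretches between 84703561 and 84722220, or 70.9% of the block. The longest stretch was chr16:84705921-84715850. The authors' lists broke the block differently, with 14 regions at 120 min and in 240 min B, 3 in 60 min B and a single region in the other 3 LPS lists. With regions up to 10 kb only, those 3 lists (60 min A, 240 min A and 360 min) held no Pol II at Mir155, and the pattern that chose the locus was not met.

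**Figure D1:**
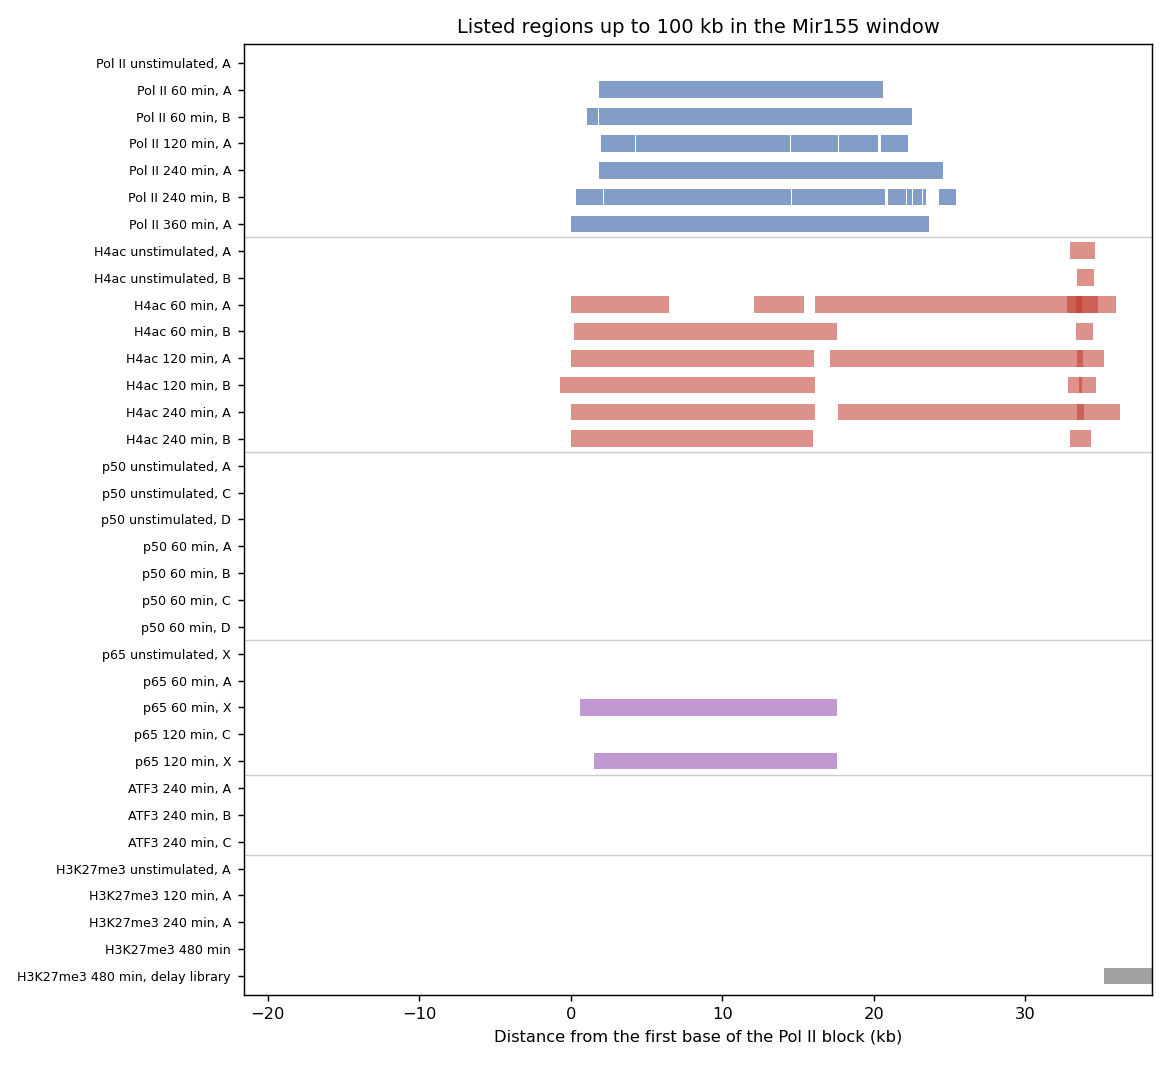
Each row is 1 of the 35 lists and each bar a listed region up to 100 kb in the Mir155 window, by distance in kb from the first base of the Pol II block; darker parts are nested regions. The 6 Pol II LPS lists and 6 H4ac LPS lists share the block, the p65 lists of letter X at 60 and 120 min cover most of it, and before LPS only a small H4ac region beyond the block is listed.

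At the Pde4b locus, Pol II after LPS lay in a longer block of 39.18 kb, chr4:102243051-102282230, near the end of the window, and in a second block, chr4:102282261-102311690, of 29.43 kb, that ran past the window's end. No Pol II region up to 100 kb was listed anywhere in the window before the first block. Covered bases were 0 kb unstimulated. They were 54.75 kb (A) and 55.59 kb (B) at 60 min and 41.89 kb at 120 min (A). They were 41.86 kb (A) and 49.17 kb (B) at 240 min and 34.68 kb at 360 min (A). Both 60 min lists stood above every later list, and the mean over LPS lists was 46.3 ± 8.25 kb (SD, n = 6).

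From 60 to 240 min the lower coverage lay almost wholly outside the first block, and at 360 min the first block was lower as well. Within the first block the LPS lists covered 38.91 kb (60 A), 38.85 kb (60 B), 38.86 kb (120 A), 38.76 kb (240 A), 38.54 kb (240 B) and 34.08 kb (360 A). All but the 360 min list covered at least 98.4% of it, and the 360 min list covered 87.0%. Outside the first block they covered 15.84 and 16.74 kb at 60 min, 3.03 kb at 120 min, 3.10 and 10.63 kb at 240 min, and 0.60 kb at 360 min. The 15.84 kb of 60 min A lay in a single wide region, chr4:102284161-102304850, with a score of 0.0413, rank 5348 of 5519. From 60 to 240 min covered bases of the window differed by -12.89 kb in A and -6.42 kb in B, while those of the first block differed by -0.15 kb in A and -0.31 kb in B.

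The best Pde4b region ranked lower than the best Mir155 region in 5 of 6 LPS lists, and the regions compared differed in width. The best score was 4.8790 at 60 min in A, rank 143, and 5.7302 in B, rank 81. At 120 min it was 4.0913, rank 279. At 240 min it was 5.4171 in A, rank 96, and 6.4296 in B, rank 46, the list in which Pde4b ranked above Mir155. At 360 min it was 2.4403, rank 327, or 11.1% of the way down the list. A length of 34.4 kb was covered in all 6 LPS lists, 60.4% of all Pol II bases of the window, and 30.86 kb of it was the unbroken stretch chr4:102250321-102281180.

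By covered bases the order of times differed between the loci. For Mir155 it ran from 360 min (23.67 kb), 240 min (23.1 ± 0.686 kb, SD, n = 2), 60 min (20.1 ± 1.89 kb, SD, n = 2) and 120 min (19.89 kb) to unstimulated (0 kb). Neither 360 and 240 min nor 60 and 120 min differed beyond the spread of the replicated member of the pair. For Pde4b it ran from 60 min (55.2 ± 0.594 kb, SD, n = 2), 240 min (45.5 ± 5.17 kb, SD, n = 2), 120 min (41.89 kb) and 360 min (34.68 kb) to unstimulated (0 kb), and the values at 240 and 120 min did not differ beyond the spread at 240 min. From 60 to 240 min Mir155 gained 3.89 kb in A and 2.19 kb in B. The Pde4b order depended on the width limit. With regions up to 10 kb the Pde4b lists covered 7.4 kb (A) and 10.58 kb (B) at 60 min and 20.59 kb at 120 min. They then covered 22.83 kb (A) and 17.29 kb (B) at 240 min and 2.46 kb at 360 min, so 60 min no longer came first. The lists with 1 library at a time give no spread, and these time differences were not tested.

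**Figure D2:**
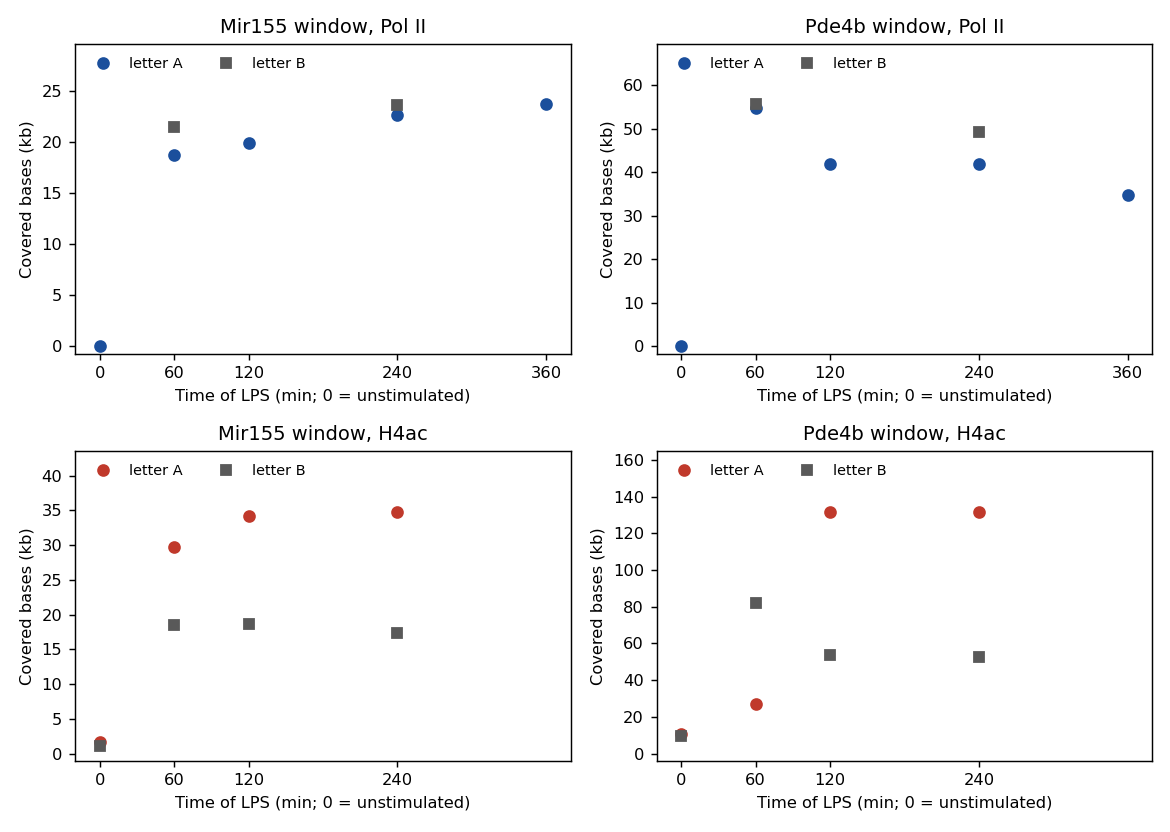
Covered bases in kb by time of LPS in min for Pol II (top) and H4ac (bottom) in the Mir155 (left) and Pde4b (right) windows, with 1 point per list, circles for letter A and squares for letter B. Pol II points lie at 0 kb unstimulated and between 18.77 and 23.67 kb (Mir155) or 34.68 and 55.59 kb (Pde4b) after LPS, and each H4ac LPS point lies above both unstimulated points.

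The unstimulated Pol II list was not short. It held 7436 regions, more than 5 of the 6 LPS lists, which held 2948 to 7728. Its nearest region up to 100 kb wide lay 94.67 kb after the Mir155 window, and on the other side 7665.86 kb before it. For the Pde4b window the nearest such regions lay 486.61 kb after and 783.97 kb before. No Pol II LPS list shares its title date with the unstimulated list, so date and stimulation cannot be told apart for this target. In bulk chromatin, a larger share of occupied cells and more polymerase per cell cannot be told apart either.

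The pattern that chose the loci was uncommon across the genome, and nothing is read from that for the members. A Pol II region in all 6 LPS lists and none unstimulated was found in 0.254% of 44019 consecutive 60 kb windows, or 1.59% of the 7062 with Pol II in any list. For 550 kb windows it was 0.623% of 4813, or 1.30% of the 2299 with Pol II in any list. Of 5711 Pol II regions merged across lists, 1.12% had it. Of the 160 Mb with Pol II in any list, 1.47% had it base by base. Among the regions that overlapped the Mir155 and Pde4b windows, the widest inside the rule's width limit was 83970 bp and the narrowest outside it 869920 bp.

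H4ac at the Mir155 locus was nearly absent from the lists before LPS and spread over the Pol II block after it. The unstimulated lists covered 1.65 kb (A) and 1.12 kb (B), all of it in 1 place beyond the end of the Pol II block, chr16:84734531-84736180 in A. At 60 min the lists covered 29.67 kb (A) and 18.50 kb (B). At 120 min they covered 34.2 kb (A) and 18.69 kb (B), and at 240 min 34.8 kb (A) and 17.38 kb (B). All 6 LPS lists lay above both unstimulated lists, and letter A lay above letter B at each time. Part of the coverage in letter A came from wide regions that ran past the end of the Pol II block. They were 19.84 kb at 60 min (score 0.5750, rank 17317 of 23682) and 18.1 kb at 120 min (score 0.5804, rank 16681 of 23028). At 240 min the region was 18.68 kb (score 0.0683, rank 26317 of 27235).

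The LPS mean for Mir155 was 25.5 ± 8.26 kb (SD, n = 6) against 1.39 ± 0.375 kb unstimulated (SD, n = 2), a difference of 24.2 kb. The exact two-sided permutation test gave p = 0.0714, or 0.107 after Benjamini-Hochberg adjustment over 3 tests, and 0.0714 is the smallest p that 6 against 2 lists allow. The difference was 5.21 kb with regions up to 10 kb, where only 4 of 6 LPS lists exceeded both unstimulated lists (exact permutation p = 0.429). Within letter B, whose 4 lists share a title date, the LPS lists exceeded the unstimulated one by 17.38, 17.57 and 16.26 kb at 60, 120 and 240 min. Letter A at 60 and 120 min, on the date of its unstimulated list, exceeded it by 28.02 and 32.55 kb.

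Inside the Mir155 Pol II block the unstimulated H4ac lists covered 0 kb and 0 kb. After LPS they covered 19.16 kb (A) and 17.36 kb (B) at 60 min, 24.45 kb (A) and 16.12 kb (B) at 120 min, and 23.97 kb (A) and 16.02 kb (B) at 240 min. Acetylation in all 6 LPS lists and in neither unstimulated list spanned 9.6 kb. It lay in 2 stretches, chr16:84701841-84708080 (6.24 kb), over the start of the Pol II block, and chr16:84713661-84717020 (3.36 kb), inside it. That is 26.0% of the 36.98 kb with H4ac in any list of the window, beside 1.05% of the 313 Mb with H4ac in any list of the genome. Only chr16:84735041-84735920 (0.88 kb), outside the Pol II block, was covered in all 8 H4ac lists.

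At the Pde4b locus H4ac was already listed before LPS at the start of the Pol II block. After LPS it ranked higher there and covered more of the window. The unstimulated lists covered 10.77 kb (A) and 9.71 kb (B). The LPS lists covered 26.99 kb (A) and 82.11 kb (B) at 60 min, 131.72 kb (A) and 53.7 kb (B) at 120 min, and 131.77 kb (A) and 52.73 kb (B) at 240 min. All 6 LPS lists lay above both unstimulated lists. The order of the letters was not constant, since B was higher at 60 min and A later.

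The LPS mean for Pde4b was 79.8 ± 43.8 kb (SD, n = 6) against 10.2 ± 0.750 kb unstimulated (SD, n = 2), a difference of 69.6 kb with an exact two-sided permutation p of 0.0714 (adjusted 0.107). Much of it came from wide regions. In letter A single regions of 76.18 kb at 120 min, with a score of 0.2062, and 75.98 kb at 240 min, with a score of 0.6708, lay before the Pol II block. With regions up to 10 kb the unstimulated lists covered 8.27 and 7.34 kb and the LPS lists 16.25 to 20.21 kb, a difference of 11.0 kb (exact permutation p = 0.0714).

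Both unstimulated Pde4b lists covered chr4:102243151-102248600 (5.45 kb), where the Pol II block begins, and chr4:102295741-102300000, at the end of the window. The first had a score of 1.7979 in A, rank 10709 of 28522, and 1.3257 in B, rank 8033 of 21058. After LPS the best-scored regions at this place were 5810 to 6060 bp wide, with scores of 3.3984 to 4.1558. Their ranks were 1554 (A) and 297 (B) at 60 min and 589 (A) and 256 (B) at 120 min. At 240 min they were 1386 (A) and 218 (B). Near the window's end the best rank was 11553 (A) and 7590 (B) unstimulated and 90 to 979 after LPS. These ranks were not tested. Of this first stretch, chr4:102243151-102248590 was covered in all 8 H4ac lists. Inside the Pol II block the unstimulated lists covered 6.02 kb (A) and 5.45 kb (B). The LPS lists covered 13.4 kb (A) and 39.18 kb (B) at 60 min, 39.18 kb (A) and 21.48 kb (B) at 120 min, and 39.18 kb (A) and 23.81 kb (B) at 240 min. In 3 LPS lists H4ac thus covered the whole block.

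H4ac listed in all 6 LPS lists and neither unstimulated list spanned 6.81 kb of the Pde4b window, or 5.03% of its 135.39 kb with H4ac in any list. The share was 1.05% of the 313 Mb with H4ac in any list of the genome. Much of the 135.39 kb lay in the wide letter A regions of 76.18 and 75.98 kb, so this share and that at Mir155 are not alike. The longest stretches were chr4:102257211-102260740 (3.53 kb) inside the Pol II block and chr4:102280281-102282250 (1.97 kb) at its end. Before the block, H4ac over chr4:102179111-102190900 was listed after LPS in 5 of 6 lists, all but 60 min A, and in neither unstimulated list. A region between 101951771 and 101952280, far before the Pol II block, was listed in all 4 lists of 120 and 240 min, with widths of 200 to 480 bp, and in neither the unstimulated nor the 60 min lists. The timing of that region was not tested.

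**Figure D3:**
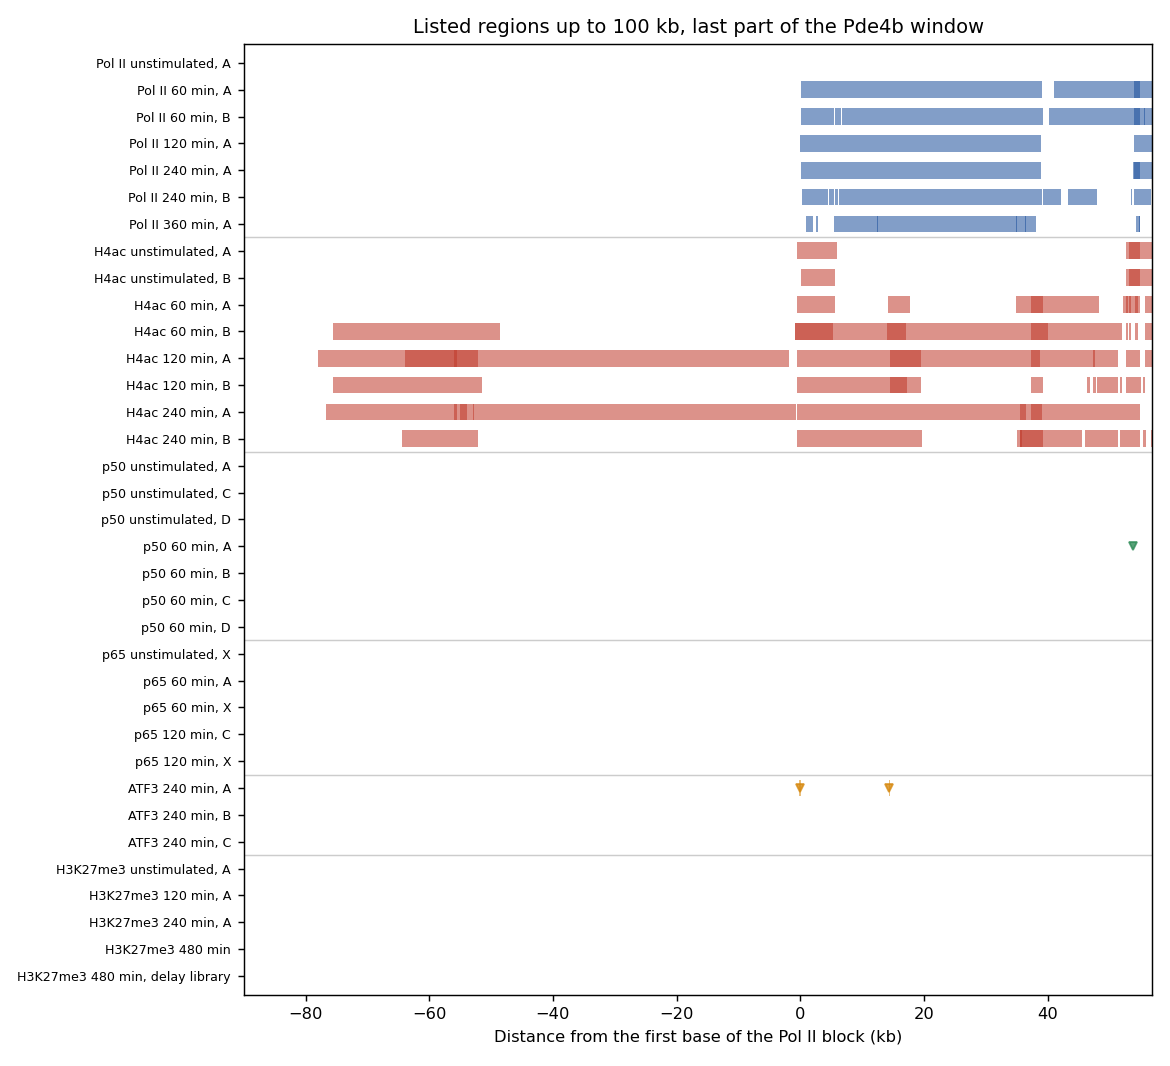
Each row is 1 of the 35 lists and each bar a listed region up to 100 kb, by distance in kb from the first base of the first Pol II block at Pde4b; triangles mark the short p50 and ATF3 regions, and the part of the window farther before the block is not drawn. The H4ac bars of the 2 unstimulated lists sit at the start of the block and near the window's end, and those of the LPS lists reach over and before the block.

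The loci differed in how much H4ac the unstimulated lists held where Pol II was listed after LPS. Of the 18.05 kb of the Mir155 window with Pol II in all 6 LPS lists, 0% had H4ac in both unstimulated lists and 100% had it in neither. Of the corresponding 34.4 kb at Pde4b, 5.90% (2.03 kb) had it in both and 92.8% (31.91 kb) in neither. The Pde4b shares depend on the 360 min list, the shortest Pol II list. Before 102248551 it covered only chr4:102243941-102245150 and chr4:102245651-102245890. Every other LPS list covered most of the stretch at the start of the block that had H4ac in both unstimulated lists. Over the 2.35 Mb of the genome with this Pol II pattern, 17.6% had H4ac in both unstimulated lists and 62.8% in neither. Bases are not replicates, so the shares describe these lists and were not tested. After LPS, 7.54 kb at Mir155 and 6.15 kb at Pde4b had both Pol II and H4ac in all 6 LPS lists of each target.

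**Figure D4:**
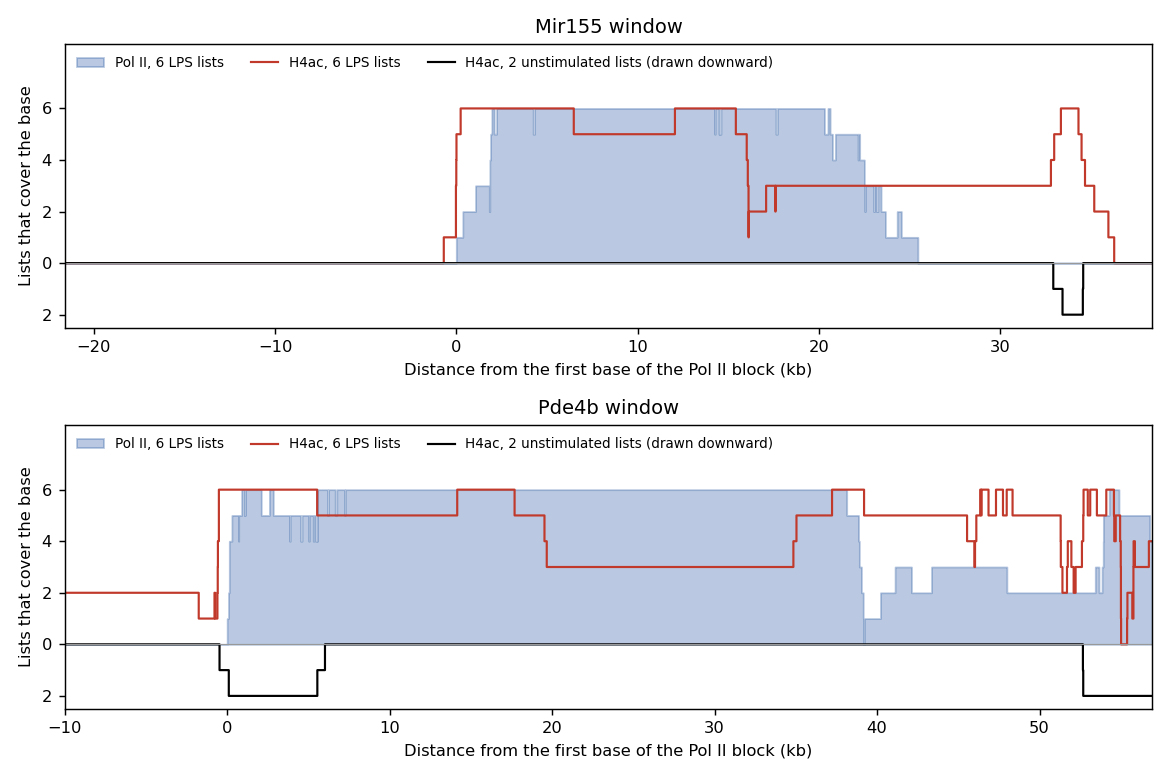
Number of lists that cover each base, by distance in kb from the first base of the Pol II block, for Pol II after LPS (filled), H4ac after LPS (red line) and H4ac unstimulated (black line, drawn downward). At Mir155 the unstimulated H4ac line leaves 0 only beyond the Pol II block, and at Pde4b it reaches 2 lists at the start of the block and near the window's end.

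The NF-κB subunit p65 was listed at Mir155 after LPS in the lists of letter X and at Pde4b in none of the 5 p65 lists. In X at 60 min a region of 16.94 kb, chr16:84702211-84719150, lay over the Pol II block, and at 120 min a region of 16.02 kb, chr16:84703121-84719140. Neither the unstimulated X list, which is the shortest of all with 255 regions, nor p65 A at 60 min nor p65 C at 120 min had a region in the window. The scores of 0.2403 and 0.1908 were in the lower part of their lists. Their ranks were 491 of 782 and 526 of 814, or 62.8% and 64.6% of the way down. The part common to both X lists shared 15.24 kb with bases that had Pol II in all 6 LPS lists, and 8.32 kb with those that had H4ac in all 6 LPS lists. These are wide regions, and a narrow p65 region, up to 10 kb, was listed in neither window. With 1 unstimulated list there was no test, and the part of the stand-apart lists A and C in this split was not tested.

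The subunit p50, which binds DNA alone or paired with p65, was listed in the Mir155 window in 0 of 7 lists, so no test could be made. At Pde4b it was listed only at 60 min in A, as 120 bp at chr4:102296781-102296900, with a score of 0.0704 and rank 1294 of 1378. Covered bases were 0 in the other 3 LPS lists and in the 3 unstimulated lists. The means were 0.03 ± 0.06 kb at 60 min (SD, n = 4) and 0 kb unstimulated, and the exact two-sided permutation test gave p = 1, with 0.0571 the smallest that 4 against 3 lists allow. This region lies in the second Pol II block, away from the start of the first.

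ATF3, a factor of the CREB family that restrains inflammatory transcription, was listed in the Mir155 window in 0 of 3 lists. At Pde4b only ATF3 A had regions, and the stand-apart lists B and C had none. The first, chr4:102242841-102243190 (350 bp), overlaps the first bases of the Pol II block and had a score of 0.0474, rank 3725 of 3954. The second, chr4:102257321-102257510 (190 bp), had a score of 1.5561, rank 486 of 3954, and falls within the stretch acetylated in all LPS lists and neither unstimulated list. ATF3 had no unstimulated list, so no change with LPS can be given.

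H3K27me3 was listed in the Pde4b window in 0 of 5 lists, and in the Mir155 window only in the delay library. That region, chr16:84736791-84820760 (83.97 kb), had a score of 0.0291, rank 4567 of 4707, and reached 3.21 kb into the window, beyond the Pol II block. All 5 H3K27me3 lists held regions overlapping its span outside the window. Within the windows, no Pol II block was touched by H3K27me3 up to 100 kb in any list, unstimulated or stimulated. The part of the second Pde4b block beyond the window was not checked.

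Across all targets the Mir155 window held a region in 17 of 35 lists and the Pde4b window in 16. Likeness to other parts of the genome was the number of lists in which a window of the same length agreed on holding a region or not. For Mir155, 1 of 44017 windows, chr11:83280001-83340000, matched in 34 of 35 lists, differing only in the H3K27me3 delay library, and 13 matched in 33. For Pde4b, 5 of 4812 windows matched in 34 lists. Those at chr10:114400001-114950000 and chr9:123750001-124300000 differed in the unstimulated Pol II list, which thus held a region there. Those at chr2:11000001-11550000, chr2:46200001-46750000 and chr7:113300001-113850000 differed in ATF3 C, p50 C at 60 min and p50 A at 60 min. The genes in these windows were not identified here, and windows without p50, p65, ATF3 or H3K27me3 match on those lists by their absence.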

How the data were processed

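Chromatin from bone marrow macrophages was precipitated with an antibody and sequenced from single ends, per the labels' protocols. Each library had 1 deposited list of regions with a score of the authors' own, and build mm9 is named in the submitters' processing notes. The sources used here name no aligner, region caller or threshold. Depth is unknown, so no counting interval is given.

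Regions up to 100 kb were joined within a list and clipped to the windows, and covered bases were compared between LPS and unstimulated lists by exact two-sided permutation tests (threshold 0.05, Benjamini-Hochberg adjustment), tested on simulated data. Regions of a target were merged across lists where they overlapped by at least 1 bp. Described in full were, per target and window, the merged region held by most lists and any held by every list of a group. The most alike windows were the 5 that matched in most lists. Members, lists and tests were chosen with earlier results of these data known. Planned lists of phosphodiesterase, microRNA, miR-155 target, cyclic AMP and cell-type marker genes need an mm9 annotation and were not analysed here. Alternatives were other width limits, better-scored regions, whole regions, wider windows, numbers of regions, left-out lists, a replicate block and shifted windows. Python 3.11, numpy 2.4.6, scipy 1.17.1 and matplotlib 3.10.9 were used.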

Additional observations from a re-analysis of the deposited data

Results flagged for a closer look

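Among the 4 p50 lists at 60 min, letter A stood apart in the Pde4b window with 120 covered bases against 0 in the other 3. Chance flags about 1 in 20 groups of continuous values, but any single value above 0 among values tied at 0 meets this measure, so that rate does not apply here.

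Regions wider than 100 kb, which the comparisons leave out, lay over the windows in LPS lists and in no unstimulated list. They were in 2 Pol II lists and 1 H4ac list over Mir155, and in 4 Pol II lists and 2 H4ac lists over Pde4b. At Mir155 their widths were 6491330 bp (Pol II, 60 min A), 6349230 bp (Pol II, 60 min B) and 3319670 bp (H4ac, 120 min A). At Pde4b they ran from 869920 bp (H4ac, 120 min A) to 1525390 bp (Pol II, 60 min B).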

How the results depend on the processing

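None of the 92 alternative values reversed in direction (0 of 92), but most of them could not. Pol II means and window shares cannot fall below 0, and p50 covered 0 kb in every unstimulated list. Only the H4ac differences could have changed sign. No H4ac or p50 test could reach 0.05, so their staying above it says nothing about stability, and the sizes are given instead. The width limit moved the Pol II mean over LPS lists most. For Mir155 it was 7.43 kb with regions up to 10 kb, 0.918 kb up to 1 kb and 34.98 kb with every width, against 21.7 kb, and 5.67 regions when regions were counted. Up to 10 kb, 3 of the 6 LPS lists held 0 kb, 60 min B held 1.04 kb, 120 min held 19.89 kb and 240 min B held 23.63 kb. For Pde4b it was 13.5, 2.34 and 250.1 kb, against 46.3 kb, and 10.7 regions. The share of 60 kb windows with the Pol II pattern was 0.157% with regions up to 10 kb. The cause was not tested beyond the change of limit.

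The H4ac difference stayed positive under every alternative run. At Mir155 it fell to 5.21 and 0.232 kb with limits of 10 and 1 kb (exact permutation p = 0.429 for both) and to 14.5 kb with the better-scored 50% of each list. At Pde4b these values were 11.0, 1.56 and 33.4 kb. Leaving out 1 list at a time gave 22.3 to 25.8 kb at Mir155 and 59.2 to 80.2 kb at Pde4b (exact permutation p from 0.0952 to 0.286), where fewer lists raise the smallest possible p. The Pol II means ran from 21.3 to 22.3 kb and from 44.5 to 48.7 kb. The p50 difference at Pde4b, 0.03 kb, was 0 kb with the better-scored 50% of each list and ran from 0 to 0.04 kb over left-out lists, being 0 without p50 A at 60 min. At Mir155 p50 was 0 throughout.

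With the letter as a replicate block, the H4ac differences were 24.2 kb at Mir155 and 69.6 kb at Pde4b, each with an exact permutation p of 0.125, the smallest that 16 arrangements allow, and the p50 differences were 0 kb at Mir155 and 0.04 kb at Pde4b (exact permutation p = 1). The labels do not say that a letter marks a shared culture or day. For H4ac, which has only 2 letters, the difference between A and B correlated at 0.119 to 0.238 between times, all 4 lists of B share a title date and 3 of 4 lists of A share another, so its letters may mark shared batches, and both p-values are given. For p50, lists of the same letter correlated at -0.0355 to 0.0914, with 2 of 3 letters correlating best with their own, and letters were not treated as pairs.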
